A study of Mus musculus with 6 samples.

Results

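The 33 genes described here encode antioxidant enzymes, enzymes of glutathione metabolism, enzymes that supply NADPH, metallothioneins, and the regulators that link them. They were chosen by gene symbol from a table of 16775 genes, and all 33 were among the 12619 genes expressed highly enough to be tested. The libraries were RNA-seq of osteoclasts, large bone-resorbing cells with several nuclei, grown from wild-type mouse bone marrow macrophages. The verapamil group (3 libraries, replicates 1, 2 and 3) was treated with verapamil, a blocker of L-type calcium channels, and the control group (2 libraries, replicates 1 and 3) is labelled only as control. Both groups received 30 ng/ml M-CSF and 50 ng/ml RANKL in medium with 10% serum, with medium changes every 2 days until day 7, while the sample titles give day 5. The sources used here do not give the dose and timing of verapamil, or the strain, sex and age of the mice. Control replicate 2 was not analysed here. The labels do not say whether replicates are separate animals or cultures, so the p-values rest on the spread among these libraries, which may be technical.

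Cells keep hydrogen peroxide and superoxide low through enzymes that draw their reducing power from glutathione and thioredoxin, and both are in turn reduced with NADPH. The transcription factor NRF2, the product of Nfe2l2, is held low by the adaptor KEAP1 and, when released, raises many of these genes by binding antioxidant response elements in their promoters together with small MAF proteins. In osteoclast precursors, reactive oxygen species are known to act as signals downstream of RANKL, and NRF2 is known to restrain osteoclast formation. Metallothioneins are small cysteine-rich proteins that bind zinc and copper, and their genes are known to be induced by metals through metal response elements.

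Promoter sequence shows which members carry the letters of that element near their start. RefSeq windows on GRCm38.p6, from 250 bases before to 50 bases after each start, matched 28 of the 33 genes (35 windows, since some genes have several starts). Gclc, Gsr, Gsta4, Prdx6 and Sod3 had no window. The core TGACNNNGC, searched on both strands, was found in 9 of the 28 genes, and in 14% of all 27025 genes with such windows. By window these were 9 of 35, against 12.4% of all 32851 windows. The 9 stretches of 29 bases are shown 5′ to 3′ on the gene's strand with the core in capitals. Of these 9 genes, 4 (Nfe2l2, Gclm, Prdx1 and Me1) passed the test described next. Over the 33 genes 39.4% passed it, and over all genes tested 25.4%. Nqo1, Gss, Gstp1, Gstm1, Gsto1, Gpx3 and Idh1 passed it too, and their windows held no match to this core. Cores on the opposite strand read GCNNNGTCA, and those of Prdx1, Mt2 and Me1 also hold the AP-1 heptamer TGACTCA on one strand. The core of Gclm overlaps a TGCGCNC match, 1 of the metal response cores described with the metallothioneins. The core of Pgd lies in the window of a second start inside the gene, and the window at the gene's outer start held none. The cores of Pgd and Srxn1 lie past the start of their windows, not before it. A match of letters is not evidence of binding.
Nfe2l2 (chr2:75704885-75704913, minus strand): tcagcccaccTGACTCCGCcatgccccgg
Srxn1 (chr2:152105542-152105570, plus strand): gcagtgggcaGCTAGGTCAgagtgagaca
Gclm (chr3:122245413-122245441, plus strand): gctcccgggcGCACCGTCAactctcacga
Prdx1 (chr4:116685456-116685484, plus strand): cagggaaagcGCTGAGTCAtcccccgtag
Pgd (chr4:149166061-149166089, minus strand): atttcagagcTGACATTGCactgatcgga
Mt2 (chr8:94172529-94172557, plus strand): aaagggggtgTGACTCAGCgcggggggtg
Me1 (chr9:86695902-86695930, minus strand): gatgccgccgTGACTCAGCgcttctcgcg
Sod1 (chr16:90220696-90220724, plus strand): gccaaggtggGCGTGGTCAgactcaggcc
G6pdx (chrX:74428919-74428947, minus strand): aggcgggtcaGCTCAGTCAaagcacacgc

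With verapamil, 5 of the 33 genes were higher (Nfe2l2, Gstm1, Gsto1, Gpx3 and Idh1) and 8 were lower (Nqo1, Gclm, Gss, Gstp1, Prdx1, Prdx6, Sod3 and Me1), at an adjusted p under 0.05 in edgeR's quasi-likelihood test over all genes. That is 15.2% higher and 24.2% lower, beside 9.99% higher and 15.4% lower among all genes tested, or 39.4% against 25.4% in either direction. The median log2 fold change of the 33 genes was -0.35, and that of all genes was -0.01. For 24 of the 33 genes the groups did not overlap (72.7%), with 6 genes higher in every verapamil library and 18 lower in every one; over all genes the share without overlap was 56.7%. Each class except peroxidases and metallothioneins held a called gene lower with verapamil. Calls higher with verapamil came from the regulators, the transferases, the peroxidases and the NADPH enzymes. Upper quartile scaling moved the median of all genes to -0.13. It gave 3 higher and 12 lower in the set, beside 915 higher and 2331 lower among all 12619 genes. Without control replicate 1 the median of the 33 genes was -0.17, and without control replicate 3 it was -0.54. Over all genes these medians were 0.004 and -0.009. Leaving out verapamil replicate 1 gave 6 calls in the set, and verapamil replicate 2 or 3 gave 5 each. Calls over all genes were also fewest when a verapamil library was left out, and their range is given in the closing section. The counts of 6 and 5 are not read as a result about the set. Nqo1, Gstp1, Gpx3, Prdx6 and Me1 were called under all 12 alternatives.

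**Figure D1:**
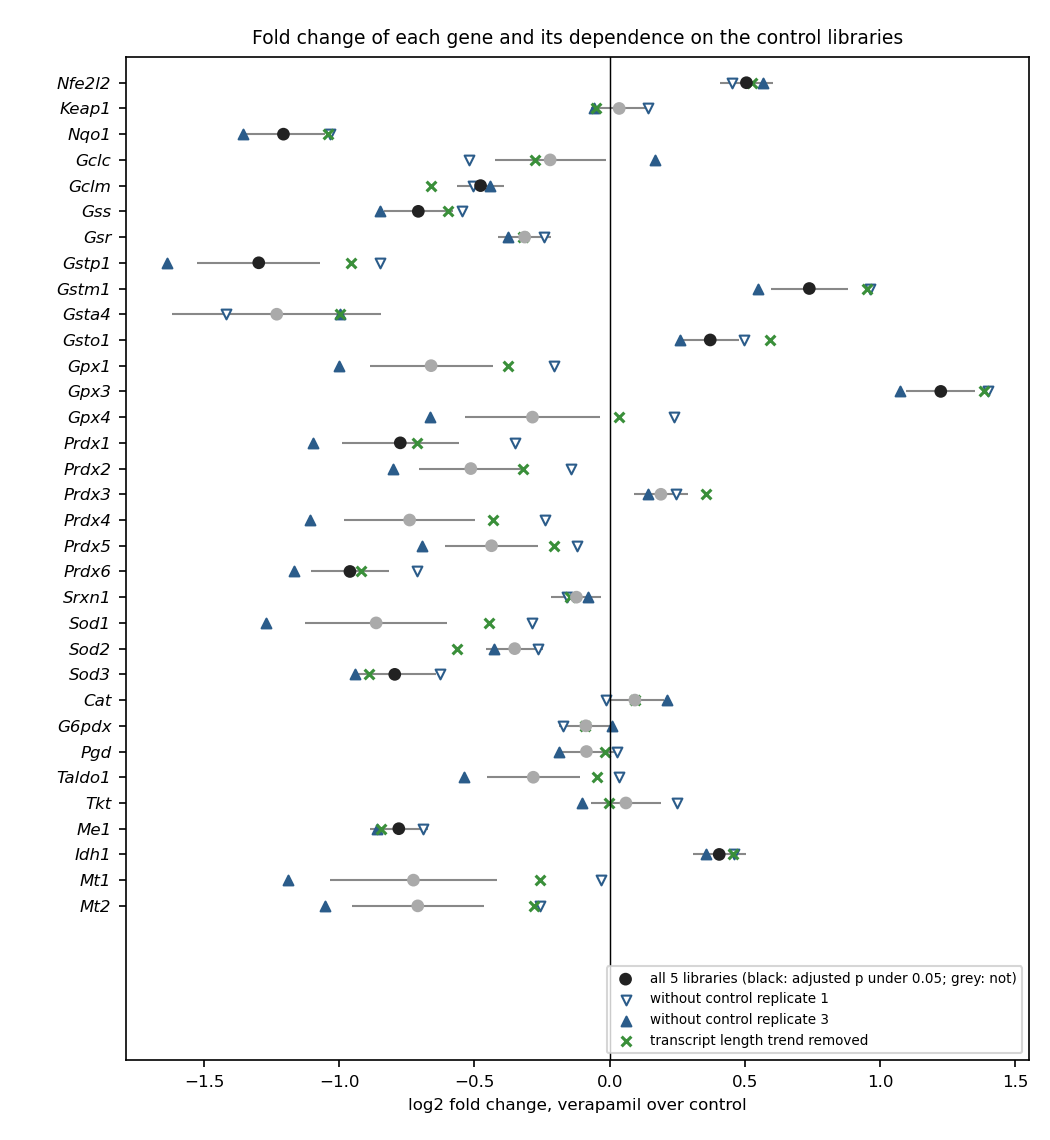
Log2 fold change of each of the 33 genes, verapamil over control (horizontal axis), with all 5 libraries (circles, black for an adjusted p under 0.05 and grey otherwise; bars are 1 standard error from edgeR), with either control left out (triangles) and with the transcript length trend removed (crosses). Gpx3 (1.23) lies farthest to the right and Gstp1 (-1.30) farthest to the left, and for short genes such as Mt1 the triangles lie far apart (-1.19 and -0.03).

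The libraries held 20202340 to 21494523 estimated reads each, and the verapamil libraries were closer to each other than the controls were. Differences between verapamil pairs had 2.20 to 4.37 times the variance of counting alone, against 43.9 times between the controls. The gap between the controls followed transcript length. Among genes with a transcript under 1000 bases the median log2 ratio of control replicate 1 to control replicate 3 was 0.71, and among those of 4000 bases and over it was -0.43. In the same length classes the median fold change, verapamil over control, was -0.36 and 0.18 on the log2 scale. Of the 33 genes, 26 were higher in control replicate 1 than in control replicate 3, as were 5485 of all 12619 genes. For 9 of them the ratio was above 1.5 (Gstp1, Gpx1, Gpx4, Prdx1, Prdx2, Prdx4, Sod1, Mt1 and Mt2). The 7 genes under 1000 bases had a median log2 fold change of -0.74, and the 14 genes from 2000 to under 4000 bases had -0.11. With the length trend removed from each library, 21 of the 33 genes were called, 6 higher and 15 lower, and all 13 calls were kept. Calls over all 12619 genes rose as well, from 3200 to 4831. The part of length in the differences was not otherwise tested.

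**Figure D2:**
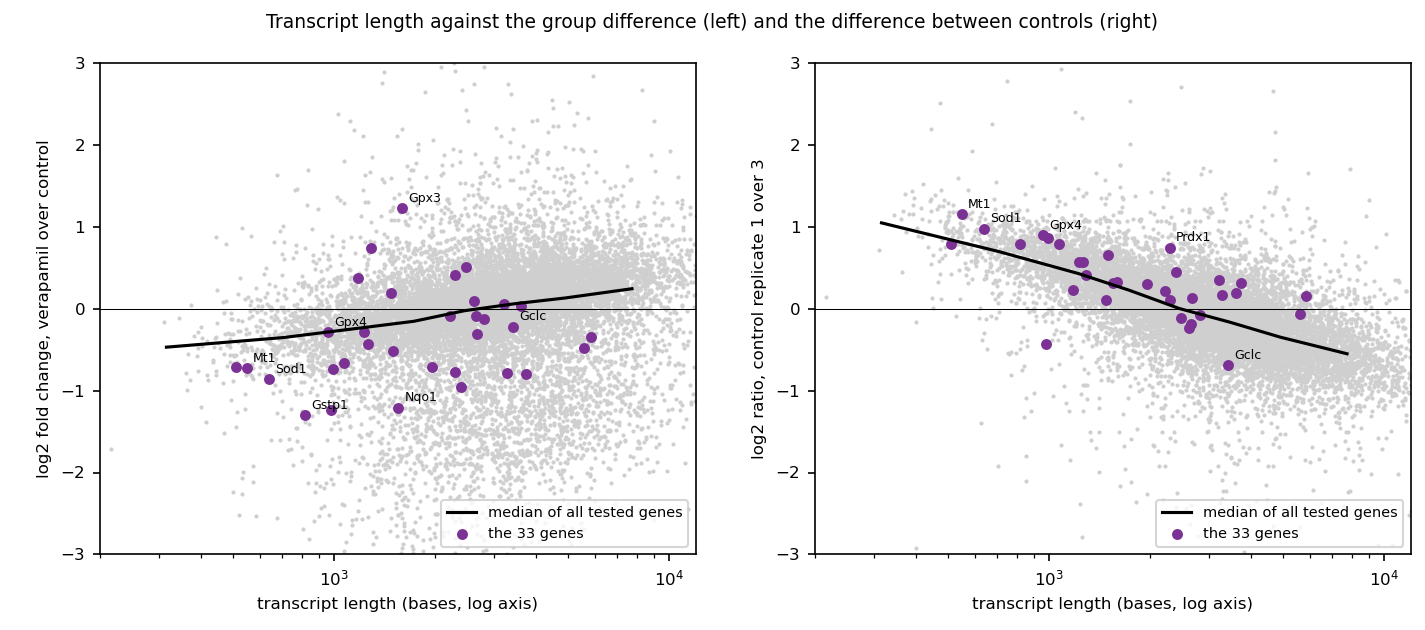
Log2 fold change of verapamil over control (left) and log2 ratio of control replicate 1 over control replicate 3 (right) against main transcript length in bases (log axis), with all tested genes in grey, their running median as a line and the 33 genes in purple; the vertical axes end at -3 and 3. Short genes such as Mt1 and Sod1 lie high in the control ratio and low in the fold change.

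The cultures expressed osteoclast and macrophage markers, and both lists were lower with verapamil. The 12 osteoclast markers summed to 3363 to 3512 CPM (counts scaled to library size after TMM normalisation) in verapamil libraries, against 7112 to 7808 CPM in controls, with 1 higher and 9 lower. Among 14 macrophage markers 1 was higher and 10 were lower, with sums of 5948 to 6130 CPM with verapamil and 8910 to 9971 CPM in controls. Of 12 tested stromal and osteoblast markers 11 were lower, with sums over the 15 listed of 544 to 568 CPM with verapamil and 1341 to 1536 CPM in controls. All 5 tested dendritic cell markers of 10 listed were lower (10.7 to 13.4 CPM with verapamil and 70.7 to 117.7 CPM in controls). Lymphocyte markers summed to at most 0.444 CPM with verapamil and 1.32 CPM in controls, and neutrophil markers to at most 4.63 CPM with verapamil and 10.0 CPM in controls. The adipocyte list went the other way, with 250.8 to 299.8 CPM with verapamil and 88.7 to 147 CPM in controls. Nearly all of it was Fabp4, a fatty acid binding protein that macrophages also make (log2 1.22, edgeR adjusted p = 0.0118), while Cfd was at 0 in every library and Adipoq, Plin1 and Cidec were at most 0.148 CPM. The erythroid list summed to 1100 to 1300.1 CPM with verapamil and 843 to 1030 CPM in controls, nearly all of it Tfrc, the transferrin receptor, which many cell types make and which did not pass (adjusted p = 0.0909). Of its other members, Epor was lower (log2 -1.46, adjusted p = 0.0203) and the globin gene Hba-a1 was at 0 in every library. In bulk RNA, fewer cells of a type and less RNA per cell cannot be told apart, and the part of these shifts in the results on the 33 genes was not tested.

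Among the regulators, Nfe2l2, the gene of NRF2 (chromosome 2, 75675513 to 75704663, GRCm38), was higher with verapamil. It stood at 373, 355 and 393 CPM in the verapamil libraries and at 253 and 274 CPM in the controls. Every verapamil library was above both controls, and the log2 fold change was 0.51 (standard error, SE, 0.0991, edgeR adjusted p = 0.0145). Keap1, which targets NRF2 for degradation, was at 64.0, 63.3 and 66.5 CPM with verapamil and at 67.3 and 58.8 CPM in controls. Its groups overlapped and its log2 fold change was 0.04 (SE 0.105, adjusted p = 0.821), a sign that turned negative under upper quartile scaling (-0.09). Nqo1 encodes a quinone reductase often used as a readout of NRF2 activity, and it was lower (chromosome 8, 107388225 to 107403205). It had 6.10, 5.73 and 5.27 CPM in verapamil libraries and 14.6 and 11.7 CPM in controls. Both controls were above every verapamil library, at a log2 fold change of -1.21 (SE 0.153, adjusted p = 0.00324). Nfe2l2 and Nqo1 thus moved in opposite directions. The call of Nfe2l2 was lost without verapamil replicate 1 (adjusted p = 0.0792), replicate 2 (0.0628) or replicate 3 (0.0965).

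**Figure D3:**
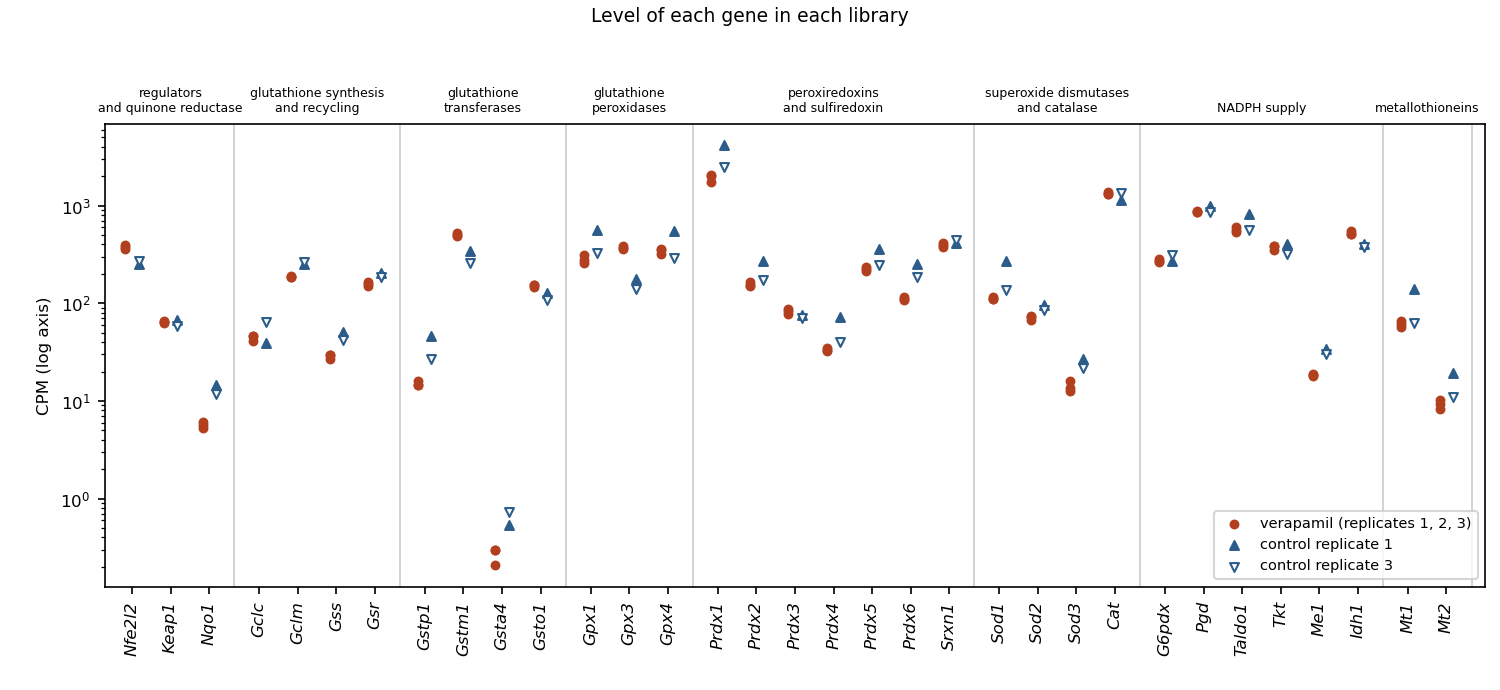
CPM of each of the 33 genes in every library (log axis), ordered by class, with the 3 verapamil libraries as circles to the left of the 2 controls as triangles. Gpx3, Gstm1 and Nfe2l2 lie higher in all 3 verapamil libraries, and Nqo1, Prdx6 and Me1 lie lower in all 3.

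The genes of glutathione synthesis and recycling were lower for 2 of 4 (50%, beside 15.4% of all genes). The class median was -0.40, with 0 higher. Glutamate-cysteine ligase makes the first and limiting step of glutathione synthesis and has a catalytic subunit, Gclc, and a modifier subunit, Gclm. Gclm (chromosome 3, 122245487 to 122267215) was at 187, 190.4 and 184 CPM with verapamil and at 255 and 267 CPM in controls. It was lower in all verapamil libraries, with a log2 fold change of -0.48 (SE 0.0869, adjusted p = 0.0112). Gclc was at 41.0, 45.8 and 46.0 CPM with verapamil and at 39.5 and 63.7 CPM in controls. Its verapamil values lay between the controls, with a log2 fold change of -0.22 (SE 0.205, adjusted p = 0.45) that came to 0.17 when control replicate 3 was left out and to -0.52 when control replicate 1 was (adjusted p = 0.00297). Gss, glutathione synthetase, which adds the glycine, had 29.2, 26.9 and 29.4 CPM with verapamil and 51.4 and 41.8 CPM in controls. Every verapamil library was below both controls (log2 -0.71, SE 0.128, adjusted p = 0.0111). Of its exon bases, 15.4% overlap Acss2 on the other strand, whose reads cannot be told apart if counting ignored strand. Exons of Prdx5 (19.1%, Trmt112), G6pdx (13.6%, Ikbkg), Prdx2 (11.5%, Rnaseh2a) and Keap1 (10.9%, Gm16754) likewise overlap genes on the other strand. Gsr, the reductase that returns oxidised glutathione to its reduced form, was at 151, 156 and 165 CPM with verapamil and at 205 and 187 CPM in controls. Its groups did not overlap, but it missed the threshold (log2 -0.31, SE 0.0976, adjusted p = 0.0612), and it passed under upper quartile scaling (0.029) and without control replicate 1 (0.0363) or 3 (0.00234). Without verapamil replicates 1, 2 and 3 in turn the adjusted p of Gclm was 0.0751, 0.0709 and 0.0888, and that of Gss was 0.0553, 0.063 and 0.0574.

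Glutathione transferases, which join glutathione to reactive compounds, moved in opposite directions. Gstm1, a mu class enzyme (chromosome 3, 108012250 to 108017973), was higher, and Gstp1, the pi class enzyme (chromosome 19, 4035411 to 4037912), was lower. Gstm1 had 523, 485 and 495 CPM with verapamil and 343 and 258 CPM in controls. The lowest verapamil library was above both controls, at a log2 fold change of 0.74 (SE 0.142, adjusted p = 0.0137). Gstp1 had 15.9, 14.4 and 14.6 CPM with verapamil and 46.7 and 27.1 CPM in controls. It was the largest fall of the 33 genes (log2 -1.30, SE 0.228, adjusted p = 0.0100), and its value was -0.85 when control replicate 1 was left out and -1.64 when control replicate 3 was. Gsto1, an omega class enzyme, had 154, 147 and 153 CPM with verapamil and 126 and 107 CPM in controls. It was higher, with a log2 fold change of 0.37, just inside the threshold (SE 0.108, adjusted p = 0.0496), and missed it with no filter on low counts, with a stricter filter and under upper quartile scaling (0.185). Gsta4, which acts on lipid peroxidation products, rested on 6, 4 and 6 counts with verapamil and 12 and 17 counts in controls, and it met the minimum count only through the controls, where it was high. It was below the controls in every verapamil library and did not pass (log2 -1.23, SE 0.387, adjusted p = 0.0632). Leaving out verapamil replicate 1, 2 or 3 took Gstm1 to an adjusted p of 0.07, 0.0557 or 0.0624, and Gsto1 to 0.179, 0.164 or 0.194. Of the 50-base windows of Gstp1 33.7% also occur in Gstp2 and 18.9% of those of Gstm1 occur at other loci, so reads could be split between copies; Gstp2 had 1.91 to 7.03 estimated counts per library.

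Within the glutathione peroxidases, which reduce peroxides with glutathione, Gpx3 was higher and neither of the other two passed the test. Gpx3 encodes the secreted plasma form (chromosome 11, 54902854 to 54910387). It was at 387, 364 and 361 CPM in verapamil libraries and at 176 and 141 CPM in controls. Every verapamil library was far above the higher control, and the fold change was 2.34 (log2 1.23, SE 0.127, adjusted p = 0.00167). Gpx1, the abundant cytosolic enzyme, was at 309.6, 259.5 and 277 CPM with verapamil and at 565 and 326 CPM in controls. Its log2 fold change was -0.66 (SE 0.228, adjusted p = 0.0816), and it came to -0.20 when control replicate 1 was left out and to -1.002 when control replicate 3 was (adjusted p = 4.37e-05). Gpx4, which protects membrane lipids, was at 349, 321 and 362 CPM with verapamil and at 546 and 292 CPM in controls. All 3 verapamil libraries lay between the controls (log2 -0.29, SE 0.248, adjusted p = 0.419), and the sign was positive without control replicate 1 (0.24) and negative without control replicate 3 (-0.67, adjusted p = 0.000148). Of Gpx4's 50-base windows 34.7% also occur in the pseudogene Gpx4-ps2. Per kilobase of transcript, Gpx3 made up 27.1%, 28.3% and 26.3% of the 3 peroxidases in verapamil libraries and 9.15% and 12.7% in controls. The share of Gpx1 was 32.3%, 30.1% and 29.96% with verapamil and 43.7% and 43.6% in controls.

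**Figure D4:**
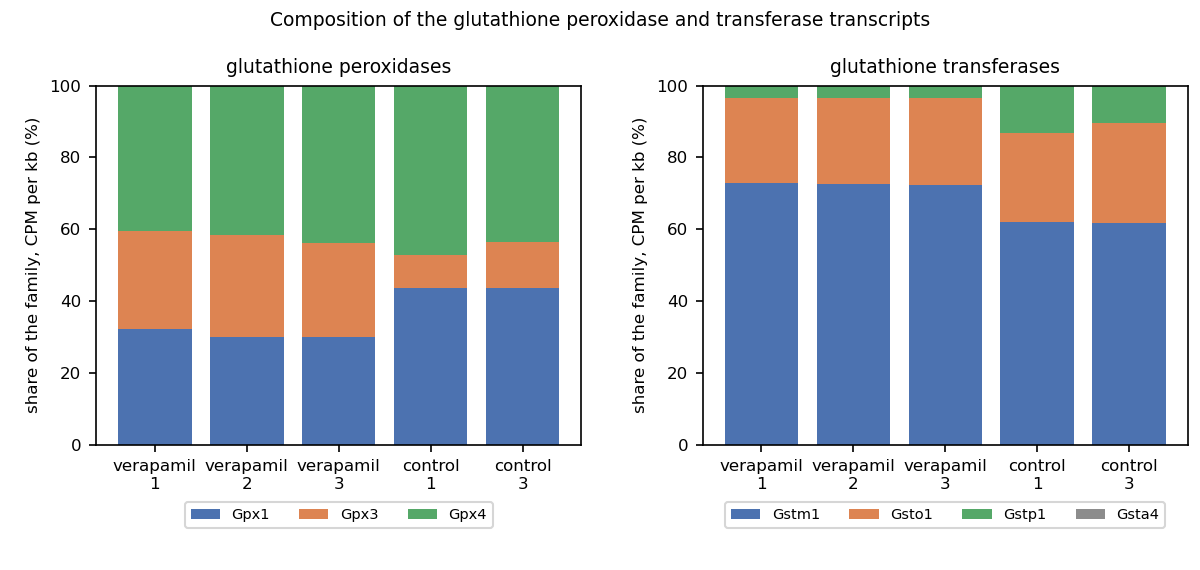
Share of each glutathione peroxidase (left panel) and transferase (right panel) among the genes of its family in the set. Shares are percentages of the summed CPM per kilobase, in each verapamil library and then each control. Family genes outside the set were left out of the sums. Gpx3 takes 26.3% to 28.3% of these peroxidases with verapamil against 9.15% and 12.7% in controls. Gstp1 takes 3.35% to 3.49% of these transferases with verapamil against 10.2% and 13.2% in controls.

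Peroxiredoxins, thiol enzymes that reduce hydrogen peroxide with electrons mostly from thioredoxin, were lower for 2 of 6. The sulfiredoxin gene Srxn1 did not pass, and with it 28.6% of the class was lower, beside 15.4% of all genes. Prdx1, a cytosolic member, had the highest level per kilobase of the 33 genes in both groups (844 CPM per kilobase on average with verapamil and 1444 in controls). It was at 2008, 1747 and 2056 CPM with verapamil and at 4152 and 2475 CPM in controls. It was lower in every verapamil library (log2 -0.77, SE 0.217, adjusted p = 0.0456), but control replicate 1 was 1.68 times control replicate 3. The log2 fold change was -0.35 with control replicate 3 alone and -1.10 with control replicate 1 alone. The adjusted p was 0.132, 0.151 and 0.121 without verapamil replicates 1, 2 and 3. Prdx6, which uses glutathione instead of thioredoxin (chromosome 1, 161240112 to 161251210), had 116, 110.5 and 109 CPM with verapamil and 251 and 184 CPM in controls. Its values were clear of both controls (log2 -0.96, SE 0.144, adjusted p = 0.00576), as they were without control replicate 1 (-0.71). Prdx2, Prdx4 and Prdx5 were below both controls in each verapamil library without passing, at log2 fold changes of -0.51, -0.74 and -0.44 and adjusted p of 0.0986, 0.0703 and 0.111. Each was nearer to control replicate 3, with -0.14, -0.24 and -0.12 when that was the only control, and each passed without control replicate 3. Prdx3, the mitochondrial member, was the exception in sign, with 87.1, 83.9 and 78.4 CPM with verapamil and 75.4 and 70.3 CPM in controls. Its verapamil libraries were all above the controls without passing (log2 0.19, SE 0.101, adjusted p = 0.208). Srxn1, which restores over-oxidised peroxiredoxins, was at 379.7, 392 and 412 CPM with verapamil and at 418 and 442 CPM in controls (log2 -0.12, SE 0.0924, adjusted p = 0.352).

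Superoxide dismutases convert superoxide to hydrogen peroxide, which catalase breaks down. Of these 4 genes 1 was called (25%, beside 25.4% of all genes). Sod3, the extracellular enzyme, was at 15.8, 13.5 and 12.5 CPM with verapamil and at 26.8 and 21.6 CPM in controls. All verapamil libraries were below both controls (log2 -0.80, SE 0.154, adjusted p = 0.0141), a call lost without verapamil replicate 2 (adjusted p = 0.0679) or 3 (0.0696). Sod1, the cytosolic copper and zinc enzyme with a transcript of 641 bases, was at 117, 110.1 and 111 CPM with verapamil and at 272 and 138 CPM in controls. It was also below both controls, which differed by 1.97 times, and it missed the threshold (log2 -0.86, SE 0.262, adjusted p = 0.0573). It passed without control replicate 1 (log2 -0.29, adjusted p = 0.0154) and without control replicate 3 (-1.27, 3.3e-06). Sod2, the mitochondrial manganese enzyme, was at 66.7, 72.5 and 74.7 CPM with verapamil and at 96.0 and 85.9 CPM in controls. It too was below both controls without passing (log2 -0.35, SE 0.106, adjusted p = 0.0562), and it passed without control replicate 1 (0.0437) or 3 (0.00216). Of the 50-base windows of Sod2, 21% also occur at other loci. Cat, catalase, was at 1366, 1307 and 1300 CPM with verapamil and at 1143 and 1340 CPM in controls. Its groups overlapped (log2 0.09, SE 0.107, adjusted p = 0.536). Catalase was 506.9 CPM per kilobase on average with verapamil and 475 in controls, below only Prdx1 with verapamil, while in controls Taldo1 (563) also stood above it.

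Of the 6 genes that supply NADPH, 1 was higher, 1 was lower and the 4 of the pentose phosphate pathway did not pass. The share called was 33.3%, beside 25.4% of all genes. Me1, cytosolic malic enzyme (chromosome 9, 86581363 to 86695914), had 19.0, 18.2 and 18.4 CPM with verapamil and 33.7 and 30.0 CPM in controls. The verapamil libraries were close together and below both controls (log2 -0.78, SE 0.107, adjusted p = 0.00428). Of the 50-base windows of Me1 28.3% also occur at other loci, 21.1% in the pseudogene Gm7049, so its reads could be split between copies. Idh1, cytosolic isocitrate dehydrogenase, was at 555, 506 and 508 CPM with verapamil and at 409 and 381 CPM in controls. It was higher in each (log2 0.41, SE 0.098, adjusted p = 0.0289), a call lost without verapamil replicate 1 (0.141), 2 (0.121) or 3 (0.126) and under upper quartile scaling (0.122). G6pdx, which makes the first and committed step of the pentose phosphate pathway, was at 285, 267 and 268 CPM with verapamil and at 272 and 309 CPM in controls. Pgd, which makes the second NADPH of the pathway, was at 872, 859 and 864 CPM with verapamil and at 985 and 851 CPM in controls. Both genes overlapped between groups, with log2 fold changes of -0.09 (SE 0.101 each, adjusted p = 0.538 for G6pdx and 0.55 for Pgd). Pgd passed without control replicate 3 (-0.19, adjusted p = 0.0374) and was 0.03 without control replicate 1. Taldo1 and Tkt carry out the non-oxidative branch of the pathway. Taldo1, with 602, 541 and 564 CPM in verapamil libraries against 827 and 557 CPM in controls, had a log2 fold change of -0.28 (SE 0.173, adjusted p = 0.263), and -0.54 without control replicate 3 (adjusted p = 0.000446). Tkt, with 388, 353 and 384 CPM in verapamil libraries against 402 and 317 CPM in controls, had 0.06 (SE 0.129, adjusted p = 0.748), and 0.25 without control replicate 1 (adjusted p = 0.0369).

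The metallothioneins Mt1 and Mt2, neighbours on chromosome 8 and the shortest transcripts of the set (549 and 511 bases), did not pass the test. Mt1 was at 61.2, 57.5 and 65.1 CPM with verapamil and at 139.9 and 62.8 CPM in controls. The verapamil libraries lay about level with control replicate 3 and under control replicate 1 (log2 -0.73, SE 0.307, adjusted p = 0.133), and without control replicate 1 the value was -0.03. Mt2 was at 9.25, 8.21 and 10.2 CPM with verapamil and at 19.1 and 11.1 CPM in controls, so below both controls (log2 -0.71, SE 0.244, adjusted p = 0.0809). Without control replicate 3 both passed, at -1.19 for Mt1 and -1.05 for Mt2 (adjusted p = 1.03e-05 and 0.000185). The ratio of Mt1 to Mt2 in CPM per kilobase was 6.16, 6.52 and 5.94 with verapamil and 6.80 and 5.29 in controls. Both genes were higher in control replicate 1 than in control replicate 3. Of the exon bases of Mt2 73.5% overlap an antisense gene, Gm45774. The 250 bases before the start site of each window are shown because the pair is known for metal response elements. The cores TGCACNC and TGCGCNC are in capitals where they occur on either strand. The gene coordinates begin Mt1 at 94178883, so most of its printed stretch lies inside the gene. Of all windows 12.6% hold the first core and 15.4% the second, against 5 and 6 of the 35 windows of the set. The printed stretch of Mt2 holds 3 matches and that of Mt1 holds 1. The shares of windows are for full windows, which run on past the start. The full window of Mt2 holds 4 matches to these metal response cores, and that of Mt1 holds 3.
Mt2 (chr8:94172368-94172617, plus strand): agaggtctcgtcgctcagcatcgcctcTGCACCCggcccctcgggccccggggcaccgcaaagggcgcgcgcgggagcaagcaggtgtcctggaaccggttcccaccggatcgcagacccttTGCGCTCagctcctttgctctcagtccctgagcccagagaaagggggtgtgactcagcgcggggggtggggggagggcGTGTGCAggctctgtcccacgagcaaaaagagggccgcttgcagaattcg
Mt1 (chr8:94178839-94179088, plus strand): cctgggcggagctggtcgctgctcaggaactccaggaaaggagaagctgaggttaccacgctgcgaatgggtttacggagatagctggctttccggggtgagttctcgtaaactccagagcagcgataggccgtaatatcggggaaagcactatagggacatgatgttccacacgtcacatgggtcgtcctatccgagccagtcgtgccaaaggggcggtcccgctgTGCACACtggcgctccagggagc

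Other genes of the same pathways were read from 8 lists. Over these lists 149 genes outside the set were tested, and 14 were higher and 25 lower with verapamil (9.40% and 16.8%), shares close to the 9.99% and 15.4% of all genes. Among 21 other NRF2-linked genes 1 was higher and 5 were lower, with a median of -0.29. The gene that rose was Slc7a11, the cystine importer that feeds glutathione synthesis, at 237, 295 and 287 CPM with verapamil and 87.9 and 123 CPM in controls (log2 1.37, SE 0.183, adjusted p = 0.00386). Hmox1, haem oxygenase 1, was at 312, 294 and 310.1 CPM with verapamil and at 579.9 and 507 CPM in controls. It fell (log2 fold change -0.83, SE 0.1, adjusted p = 0.00276), and the aldo-keto reductase Akr1b8 (log2 -1.25, adjusted p = 0.00223) and the epoxide hydrolase Ephx1 (-0.87, 0.00191) fell as well. Of 13 tested partners and competitors of NRF2 3 were higher and 0 were lower. These were Nfe2 (log2 1.61, adjusted p = 0.0246), a factor of the same family at 0.826 to 1.28 CPM with verapamil against at most 0.36 CPM in controls, the small MAF gene Mafk (0.64, 0.0108) and Nfe2l1 (0.41, 0.0355), the last named after its values were seen. Nfe2 rested on 26, 16 and 19 counts with verapamil and 8 and 6.82 in controls. It met the minimum count only through the verapamil libraries, where it was high, so its call lends no support to the count of this list. Bach1, a repressor that competes for the same elements, was at 164, 184 and 178 CPM with verapamil and 102 and 153 CPM in controls and did not pass (log2 0.46, adjusted p = 0.11).

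Other glutathione enzymes were lower for 10 of 30 and higher for 1 (median -0.48). That is 33.3% and 3.33%, beside 15.4% and 9.99% of all genes. The largest falls were those of the glutamyl transferase Ggt5 (log2 -2.41, edgeR adjusted p = 0.00344), the endoplasmic reticulum peroxidases Gpx8 (-1.88, 0.00104) and Gpx7 (-1.51, 0.0313), and the oxoprolinase Oplah (-1.24, 0.00639). Ggt5 stood at 1.33, 0.62 and 1.23 CPM with verapamil and at 6.38 and 4.95 CPM in controls, and Gpx8 at 4.62, 3.41 and 3.94 CPM with verapamil against 15.3 and 14.05 CPM in controls. Thioredoxin and methionine sulfoxide reductase genes were lower for 4 of 17 and higher for 1 (23.5% and 5.88%). Msrb3, a methionine sulfoxide reductase (log2 -1.77, adjusted p = 0.00101), nucleoredoxin Nxn (-1.69, 0.00118) and the thioredoxin inhibitor Txnip (-0.90, 0.00421) fell, and the reductase Txnrd3 rose (0.83, 0.00723). Txnip was at 129, 129 and 109.5 CPM with verapamil and at 210.3 and 247 CPM in controls. Stromal markers, lower in the same libraries, were given above, and their part in the falls of these genes was not tested.

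Among 22 other NADPH and pentose phosphate genes 2 were higher, Aldh1l1 of folate metabolism (log2 0.73, edgeR adjusted p = 0.00503) and Prps2, a phosphoribosyl pyrophosphate synthetase (0.61, 0.0117). The lower ones were Fdxr, ferredoxin reductase (-1.09, 0.0206), and Mthfd1l, a mitochondrial folate enzyme (-0.64, 0.0221). The share of these 22 genes called was 18.2%, beside 25.4% of all genes. Of 12 tested oxidant sources 2 were higher and 1 was lower, which is 25% called. Ncf1, the p47 subunit of the phagocyte NADPH oxidase, had 344, 319.7 and 331 CPM with verapamil and 222 and 236 CPM in controls (log2 0.53, SE 0.0938, adjusted p = 0.01). Its catalytic subunit Cybb had 1048, 1161 and 1182 CPM with verapamil and 675 and 965 CPM in controls. The groups of Cybb did not overlap, and it did not pass (log2 0.46, SE 0.167, adjusted p = 0.0918). Nox4 (log2 -2.47, adjusted p = 0.0135) was at most 0.207 CPM with verapamil and 0.897 CPM in controls, and Nos2, the inducible nitric oxide synthase (1.58, 0.0398), was at most 0.592 CPM with verapamil and 0.18 CPM in controls. Nox4 had 2, 4 and 2 counts with verapamil and 13.9 and 21 in controls, and Nos2 had 9, 11 and 12 with verapamil and 4 and 4 in controls. Each met the minimum count only through the group in which it was high, so these calls lend no support to the count of the list.

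Genes of metal handling beside Mt1 and Mt2 were higher for 4 of 17 and lower for 3 (median 0.22). That is 23.5% and 17.6%, beside 9.99% and 15.4% of all genes. Mt3, another metallothionein gene, was at 9.15, 9.87 and 9.96 CPM with verapamil and at 48.8 and 28.2 CPM in controls. Its verapamil values lay under both controls (log2 -1.99, SE 0.232, edgeR adjusted p = 0.00244). The ferroxidase gene Cp (log2 -1.71, adjusted p = 0.000909) and the copper chaperone gene Atox1 (-1.22, 0.0244) were lower, and the copper transporter gene Slc31a2 was higher (1.11, 0.00136). Atox1 was at 399 CPM in control replicate 1 and 193 CPM in control replicate 3. Of 18 selenoprotein synthesis and selenoprotein genes 0 were called by edgeR, and Selenow had the smallest p (log2 -0.91, adjusted p = 0.0616). Of the 25 related genes named by rule as called, 15 were called under every alternative that could be fitted. The other 10 (Nfe2, Mafk, Gpx7, Fdxr, Mthfd1l, Prps2, Nox4, Nos2, Ncf1 and Atox1) lost the call without at least 1 verapamil library, with highest adjusted p over all alternatives between 0.0614 and 0.14. Gpx7 lost it without control replicate 1 as well, and Nos2 was called under only 3 of the 9 alternatives that could be fitted for it. Nfe2l1 also lost its call (highest adjusted p = 0.166), and Atox1 had a log2 fold change of -0.60 without control replicate 1.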

How the data were processed

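Per the labels' protocols, RNA was extracted with Trizol and libraries were made from 1.3 ug of total RNA with a SMARTER mRNA kit. For each library the deposited table gives the authors' estimated counts per gene, written with decimals and, judged from the values, not normalized by the authors. GRCm38 and mm10 are named per the submitters' processing notes, while for the aligner, counting program and strand setting the entry is: not given in the sources used here. Of 16775 genes, 175 were at 0 in all 5 libraries.

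The estimated counts were rounded to whole numbers and fitted in R 4.3.3 with edgeR 4.0.16 (TMM scaling, default expression filter with a minimum count of 10 and minimum total of 15, quasi-likelihood test with the group as the only term). The fit had 3 residual and 3.28 prior degrees of freedom. The coefficient of variation between libraries beyond counting was 15.3%, which may be technical. Benjamini-Hochberg adjustment ran over all 12619 genes tested, with a threshold of 0.05. Fold changes are verapamil over control. Each standard error was derived from edgeR's F statistic (size of the log2 fold change over the root of F). The fit was checked on simulated counts.

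Main transcript lengths and shared 50-base windows came from GENCODE on GRCm38, and coordinates and promoters from RefSeq tables on GRCm38.p6. A transcript length was found for 12394 tested genes. Levels of the 33 genes are compared with each other only as CPM per kilobase, and marker lists were summed in CPM. The 33 genes and all lists were chosen with earlier results of these data known. All 33 were named. From each related list the called genes with the largest change were named, up to 4 a list and 25 in all, or the gene with the smallest p where none was called. The alternatives were DESeq2 1.42.0 size factors, upper quartile factors, no filter, a stricter filter of 50 counts in 2 libraries, DESeq2's Wald test, a replicate block, removal of the transcript length trend, and leaving out each library in turn.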

Additional observations from a re-analysis of the deposited data

How the results depend on the processing

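None of the 13 called genes of the set changed sign under any of the 12 alternatives, and 5 (Nqo1, Gstp1, Gpx3, Prdx6 and Me1) kept their call under all of them. Removing the transcript length trend raised the calls to 21 of the 33 genes, 68 of the related genes and 4831 of all genes, against 13, 39 and 3200. Leaving out 1 library gave 5 to 26 calls in the set, 17 to 97 among related genes and 1460 to 7808 over all genes, with the fewest when a verapamil library was left out and the most without control replicate 3. With 1 control left, that library is assumed to vary like the verapamil libraries. The cause of these shifts was not tested. The median of the set ran from -0.54 without control replicate 3 to -0.17 without control replicate 1.

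Within the set, sign changes under these alternatives were found for 8 genes, none of them called. Under upper quartile factors the log2 fold change was -0.088 for Keap1, -0.022 for Cat and -0.065 for Tkt, and under the stricter filter it was -0.0096 for Keap1. With the length trend removed it was -0.051 for Keap1, 0.033 for Gpx4 and -0.0035 for Tkt. Leaving out 1 library in turn gave ranges of -0.059 to 0.14 for Keap1, -0.52 to 0.17 for Gclc, -0.67 to 0.24 for Gpx4, -0.012 to 0.21 for Cat, -0.17 to 0.0070 for G6pdx, -0.19 to 0.029 for Pgd, -0.54 to 0.035 for Taldo1 and -0.10 to 0.25 for Tkt.

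The replicate numbers 1 and 3 occur in both groups, but the labels tie them to no animal or day. For that reason the numbers were not taken to pair the libraries. The deviations of same-numbered libraries correlated at 0.29 (number 1) and 0.02 (number 3). With 2 controls the deviations of each mirror those of the other, so these values are not separate checks. Control replicate 3 also correlated at 0.29 with verapamil replicate 2, so the correlations cannot decide whether the numbers pair libraries. Under the replicate block, verapamil replicate 2 had no control of its number. It did not enter the group difference, which rested on replicates 1 and 3. With the block 15 genes of the set were called, 3 higher and 12 lower. Over all 12619 genes the block gave 3317 calls, 1342 higher and 1975 lower. Gpx1, Mt1, Mt2, Prdx4 and Sod1 were added, and Gclm (edgeR adjusted p = 0.0584), Gsto1 (0.13) and Idh1 (0.115) were lost. The comparison rests on 5 libraries, and Gsta4 on 4 to 17 counts per library, so that differences of its size were near the limit of this depth.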
